A study of Mus musculus with 24 samples.

Results

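Spliceosomal and other structural small RNAs were examined as the autosomal genes that GENCODE M1, the annotation on mouse build mm9, types as snRNA or misc_RNA. There were 1789 of them among 37310 annotated genes, 1331 of type snRNA and 458 of type misc_RNA, against 22380 protein-coding genes. A tag, the mapped position of a sequenced read, was counted in a gene when its midpoint lay inside it. Tags were counted in 16 RNA-seq libraries of 2 sources. CCE is an embryonic stem cell line of strain 129/SvEv, kept here without LIF and given 0.266 µM retinoic acid for 5 days. FH is whole fetal head of FVB/N embryos at 14.5 dpc. For 14 libraries rRNA had been removed with RiboMinus. They came from 7 cDNA preparations, each sequenced in Vienna-IMP and in Nijmegen: sheared cDNA of the CCE 1, CCE 2 and FH 1 RNAs, and cDNA of hydrolysed RNA from CCE 1, CCE 2, FH 1 and FH 2, the last after 2 rounds of depletion. The other 2 libraries, 1 of CCE and 1 of FH, came from Ribo-Zero-depleted and hydrolysed RNA. Source, strain and kind of sample differ together, so a difference between CCE and FH cannot be told apart from one between strains. Both are bulk samples, in which fewer cells of a type and less RNA per cell cannot be told apart. The study's text calls CCE 1 and CCE 2 technical replicates, and whether FH 1 and FH 2, which differ in rounds of depletion, came from separate animals is not stated, so p-values below measure a spread between preparations that is technical in CCE.

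These RNAs work inside ribonucleoproteins. U1, U2, U4, U5 and U6 form the major spliceosome, and U11, U12, U4atac and U6atac, with U5, the minor one, which removes a rare class of introns. U7 guides the 3′ end formation of histone mRNAs. Of the misc_RNA genes, 7SK holds the elongation factor P-TEFb inactive, Rmrp and Rpph1 are the RNA subunits of RNase MRP and RNase P, which process rRNA and tRNA precursors, 7SL is the scaffold of the signal recognition particle, Terc is the template of telomerase, Y RNAs bind the Ro60 protein, and Vaultrc5 is the RNA of the vault particle. In mammalian genomes most sequences related to them are retrotransposed copies without a promoter of their own. The annotation counted 881 genes of the U6 family, 389 of 7SK, 196 of U1, 113 of U7, 49 of U2, 45 of U4, 26 of U6atac, 25 Y RNAs, 18 of 7SL, 17 of RNase P and 10 of U5, and 6 or fewer of each other family.

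The labels were checked on marker genes. Pou5f1, a pluripotency factor, lay between 26.1 and 65.8 CPM (tags per 1000000 unique tags) in the libraries of CCE and at 0 in those of FH, and the endoderm factor Gata4 between 32.9 and 80.3 CPM against at most 0.043 CPM. The lens crystallin Cryaa lay between 39.3 and 108 CPM in FH and at most at 0.688 CPM in CCE. The neuronal gene Stmn2 overlapped between the sources, at 15.3 to 50.04 CPM in CCE and 43.1 to 767 CPM in FH. Gata6, Sox17 and Lama1, of endoderm, were higher in every library of CCE than in any of FH, and the neuronal genes Tubb3 and Neurod1 were higher in every library of FH than in any of CCE. Tubb3 was present in CCE too, at up to 42.0 CPM. A RiboMinus library held 920424 to 2473448 unique tags, and the Ribo-Zero libraries 26345467 (CCE) and 46226046 (FH) outside the mitochondrial genome, so 3 tags, taken as the floor of a gene without tags, are worth far less there. Replicate numbers of the hydrolysed libraries appeared crossed between locations: the log2 ratio of preparation 1 to 2 correlated across genes between Vienna-IMP and Nijmegen with r = 0.632 in sheared CCE but −0.645 in hydrolysed CCE and −0.502 in hydrolysed FH. Genes are not independent replicates, and the 3 values describe the libraries only. Values of single hydrolysed preparations are given as numbered, and tests and means that rest on the numbering are given with it crossed where that changes a call or an overlap.

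The sequences on which the results below turn are the short RNAs that differed most between the kits, U1 and U2 copies with unlike tissue differences, and the long RNAs that held most tags. They are given on mm9, 5′ to 3′ on the strand of the gene, with the most frequent 51-nt Ribo-Zero tag in capitals.
Rny3, chr6:47731623-47731724 (+): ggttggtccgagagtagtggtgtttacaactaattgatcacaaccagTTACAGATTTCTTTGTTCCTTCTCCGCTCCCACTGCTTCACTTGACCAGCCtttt
Rny1, chr6:47738068-47738179 (-): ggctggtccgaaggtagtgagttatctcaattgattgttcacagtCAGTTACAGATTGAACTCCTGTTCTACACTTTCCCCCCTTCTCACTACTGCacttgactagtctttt
U4atac, chr1:120355718-120355842 (-): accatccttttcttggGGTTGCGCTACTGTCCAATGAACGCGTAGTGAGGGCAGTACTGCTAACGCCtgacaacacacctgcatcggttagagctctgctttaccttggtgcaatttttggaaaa
U4, chr5:115939468-115939608 (+): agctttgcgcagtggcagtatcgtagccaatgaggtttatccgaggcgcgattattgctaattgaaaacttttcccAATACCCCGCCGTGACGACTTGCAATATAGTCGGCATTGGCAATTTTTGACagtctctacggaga
U1, chr3:89771921-89772085 (-): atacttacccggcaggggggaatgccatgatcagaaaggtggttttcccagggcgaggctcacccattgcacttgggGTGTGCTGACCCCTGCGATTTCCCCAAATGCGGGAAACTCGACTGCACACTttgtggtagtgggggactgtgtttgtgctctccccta
U1, chr12:55797769-55797932 (+): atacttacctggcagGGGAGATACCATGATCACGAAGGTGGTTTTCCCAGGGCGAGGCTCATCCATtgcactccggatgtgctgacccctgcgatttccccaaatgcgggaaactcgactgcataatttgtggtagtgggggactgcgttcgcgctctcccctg
U2, chr12:60141322-60141512 (+): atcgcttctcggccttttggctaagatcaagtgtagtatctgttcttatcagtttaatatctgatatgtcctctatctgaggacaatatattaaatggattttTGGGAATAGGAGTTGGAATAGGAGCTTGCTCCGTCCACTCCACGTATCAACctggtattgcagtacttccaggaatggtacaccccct
Rmrp, chr4:43505660-43505930 (-): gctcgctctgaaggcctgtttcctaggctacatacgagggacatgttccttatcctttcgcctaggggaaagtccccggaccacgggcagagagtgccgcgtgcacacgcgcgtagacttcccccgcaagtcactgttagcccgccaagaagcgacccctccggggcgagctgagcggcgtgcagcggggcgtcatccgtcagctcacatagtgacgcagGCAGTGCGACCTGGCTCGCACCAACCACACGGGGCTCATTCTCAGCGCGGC
Rpph1, last part, chr14:51427124-51427273 (-): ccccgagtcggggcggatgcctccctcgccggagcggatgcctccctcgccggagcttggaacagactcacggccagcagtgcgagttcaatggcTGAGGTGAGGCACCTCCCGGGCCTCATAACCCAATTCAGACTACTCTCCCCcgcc
Rn7sk, last part, chr9:78023110-78023259 (-): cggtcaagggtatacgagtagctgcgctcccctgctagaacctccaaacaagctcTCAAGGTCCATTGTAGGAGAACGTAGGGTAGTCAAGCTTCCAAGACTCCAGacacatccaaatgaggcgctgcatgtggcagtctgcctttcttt
The study's methods kept only tags with 1 match in the genome. Windows of these genes were therefore searched for a second match within the same mismatch limit, and are called unique where there was none. In Rn7sk 61 of its 296 windows of 36 nt were unique, all of them in the last 40% of the gene, and in Rpph1 120 of 284. All 236 windows of Rmrp were unique, and so were 42 of 67 in Rny3 and 35 of 77 in Rny1. The 2 U1 genes shown are identical at 90.3% of aligned positions.

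In the RiboMinus libraries together, 256204 tags, 1.115% of the unique tags, lay in the 1789 genes. The share was higher after cDNA-shearing, at 1.64% ± 0.346 (SD, n = 3 preparations), than after RNA-hydrolysis, at 0.864% ± 0.046 (n = 4), and the ranges did not overlap (1.242 to 1.849% and 0.7999 to 0.9051%). With the numbers crossed the hydrolysed preparations were at 0.882% ± 0.243 and ranged from 0.569 to 1.131%, still below the sheared ones. Between the tissues it overlapped, at 1.22% ± 0.441 in CCE (n = 4) and 1.17% ± 0.588 in FH (n = 3). With Ribo-Zero it was 4.819% in CCE (95% Wilson interval 4.811 to 4.827%) and 3.193% in FH (3.188 to 3.198%). Set against the tags in protein-coding exons the 2 Ribo-Zero libraries were close to each other, at 7.29 and 7.19%, and the RiboMinus libraries stood at 1.81%. Intervals and floors here cover counting error only, since PCR copies are not independent molecules.

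Almost all of these tags were in misc_RNA genes. The 1331 snRNA genes held 352 RiboMinus tags, 0.001532% of the unique tags (0.00138 to 0.001701%), and 61641 Ribo-Zero tags, 0.0849%. In the Ribo-Zero libraries their share was 0.1154% in CCE and 0.0676% in FH. Only tags with 1 match in the genome were kept, so tags of near-identical snRNA genes may be missing and these shares understated. In U1 and U2 copies at least 90% identical to the leading copy 0.0% of the 36-nt windows were unique. In U6 copies that close to the most frequent U6 sequence 4.51% were. The misc_RNA genes held 255852 and 2683982 tags. Rmrp alone held 59.1% of the RiboMinus tags, the 3 leading genes Rmrp, Rn7sk and Rpph1 96.5%, and 16 genes 99.47%. With Ribo-Zero the leading gene held 35.4%, 3 genes 73.9% and 5 genes 94.1%.

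A gene was called active in a kit when it held at least 50 pooled tags, at least 10 RPKM (tags per kilobase of gene and 1000000 unique tags), and at least 5 times the tag density of its flanks, taken from 100 to 1000 bases away on each side. These counts describe the genes, and no test was made on them. In RiboMinus 16 genes were active and in Ribo-Zero 41. Of the 16, which were chosen without the Ribo-Zero libraries, 11 were also past the thresholds there: Rmrp, Rn7sk, Rpph1, Rprl3, Rprl2, Rny1, Rny3, Terc, Vaultrc5, a 7SK copy at chr9:120700583-120700903 and a 7SL gene at chr5:150059530-150059820. The 5 active in RiboMinus alone were 4 7SL copies and a 7SK copy. Just inside the RiboMinus thresholds were 7SL copies at chr18:65587123-65587464 (11.07 RPKM) and chr8:113022752-113023027 (11.67 RPKM), and just outside were 7SK copies at chr16:81261948-81262260 (8.90 RPKM) and chr5:140320884-140321204 (7.32 RPKM).

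The 46 genes active in either kit held 99.54% of the RiboMinus and 99.75% of the Ribo-Zero tags of the group. Of 881 U6 genes 6 were active, of 389 7SK genes 4, of 196 U1 genes 8, of 49 U2 genes 2 and of 45 U4 genes 2, whereas 6 of 10 U5 genes and 6 of 18 7SL genes were. The 7SL genes Rn7s1 and Rn7s2, each 91.6% identical to the leading 7SL copy, had no unique 36-nt window. Rn7s1 had 9.09 RPKM in RiboMinus and 7.10 in Ribo-Zero, and Rn7s2 3.52 and 16.3. The level of 7SL may therefore be understated. None of 113 U7 genes was active. Rnu7 itself, inside an exon of Grcc10, held 3 RiboMinus and 20 Ribo-Zero tags. It is 62 bases long, little more than a Ribo-Zero tag of 51 nt.

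**Figure D1:**
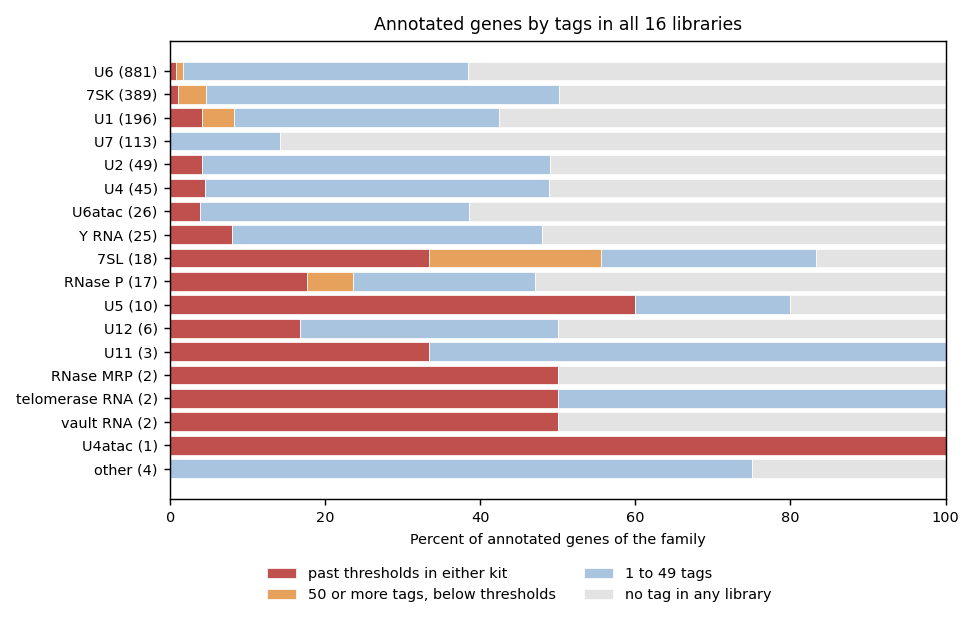
Share of the annotated genes of each family (number in brackets) in 4 classes of tag content over all 16 libraries, as stacked bars. Genes past the thresholds in either kit take 6 of 881 U6 genes and 4 of 389 7SK genes but 6 of 10 U5 genes, and 543 U6 genes held no tag.

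The other 1743 genes held 1187 RiboMinus and 6750 Ribo-Zero tags in all. They are called silent for lying under the thresholds in both kits, although 35 of them held 50 or more tags. Of the 1789 genes, 1044 (58.4%) held no tag in any library. Of these 1044, 855 had at least 1 unique 36-nt window, while 305 genes of the whole set had none (and held 129 RiboMinus and 31155 Ribo-Zero tags, the latter 51 nt long). The 1060 silent genes between genes had as many RiboMinus tags per kb as their flanks (ratio 1.03) and 2.56 times as many Ribo-Zero tags. The 663 silent copies inside introns had fewer than their flanks, at 0.614 and 0.779 times. Of the 36-nt windows 69.8% were unique in the silent genes between genes and 69.9% in those inside introns. Uniqueness of the flanks, which can reach exons of the host, was not searched, and its part in these ratios was not tested. Of the 46 active genes 39 lay between genes, 5 in introns and 2 in exons. Rmrp is one of the latter, on the strand opposite to Ccdc107, and its density was 19734 times that of its flanks in RiboMinus.

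Closeness to the leading copy did not by itself mark the active genes. Among 7SK copies, 357 were less than 70% identical to Rn7sk, of which 189 held no tag and none was active, and 31 were 70 to 90% identical, of which 2 were active in each kit. Among U6 copies, 288 were at least 90% identical to the most frequent U6 sequence, which 40 genes shared, and 166 of those 288 held no tag and 5 were active in Ribo-Zero. Only 4.51% of the 36-nt windows of these 288 were unique, so their tag counts are uncertain. The 2 active U4 genes, 98.6% identical and both on chr5, had no unique 36-nt window at 2 mismatches either. Tags in the 1789 genes that Vienna-IMP placed there had no second match in 90.1% and a near copy in 9.90%, by an independent search of the genome, and the Ribo-Zero tags in 95.5% and 4.53%.

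Sequences that the spliceosome uses were searched inside the genes on their own strand. ACTTACCT, with which U1 pairs to the 5′ splice site, was found within the first 20 bases of 4 of the 8 active U1 genes and of 53 of 188 silent ones (28.2%). The U1 gene at chr3:89771921-89772085, with the most tags of its family, did not hold it. GTAGTA, by which U2 pairs to the branch point, was in both active U2 genes and in 28 of 47 silent ones. ACAGAGA, the part of U6 at the catalytic centre, was in all 6 active U6 genes and in 530 of 875 silent ones (60.6%), of which 314 held no tag. In genes of other families these 3 sequences occurred in 0, 1.49 and 9.47%. Of the 36-nt windows of the silent U1, U2 and U6 copies with the sequence, 42.7, 40.02 and 34.8% were unique, and the part of this in their lack of tags was not tested.

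The region upstream was searched for TATA from 40 to 16 bases before the start, where the small RNA genes of RNA polymerase III carry it. It was also searched, on both strands within 250 bases, for the octamer ATGCAAAT of the distal element, which is not particular to genes of RNA polymerase III. Of the 46 active genes 7 (15.2%) held the TATA and 11 (23.9%) the octamer, against 10.4 and 3.04% of the 1743 others and 5.91 and 1.60% of 32851 RefSeq promoters of this build. Both active U2 genes, 3 of 6 active U5 genes, 1 of 2 active U4 genes, Rnu11, Rnu12, U4atac, Rmrp and Rpph1 held the octamer. Rn7sk, Rpph1, Rny3, Vaultrc5 and a U6 gene on chr16 held the TATA, and so did Rnu12 and the U1 gene at chr12:55797769-55797932, which belong to families transcribed by RNA polymerase II. A run of TTTT, the stop signal of RNA polymerase III, lay at the end or in the 20 bases after it in 41.3% of the active genes and 38.2% of the others. By family it was in all 6 active U6 genes against 56.2% of the silent ones, in 3 of 4 active 7SK genes against 15.8%, in 1 of 8 active U1 genes against 14.9%, and in no active U2, U4 or U5 gene against 10.6, 25.6 and 25.0%. Regions with the match in capitals are shown as examples.
Rn7sk, 60 bases upstream, chr9:78023441-78023500 (-): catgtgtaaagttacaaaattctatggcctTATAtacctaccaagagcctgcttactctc
Rpph1, 60 bases upstream, chr14:51427443-51427502 (-): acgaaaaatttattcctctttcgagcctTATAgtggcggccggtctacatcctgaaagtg
Rny3, 60 bases upstream, chr6:47731563-47731622 (+): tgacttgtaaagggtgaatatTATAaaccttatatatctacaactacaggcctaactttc
Rpph1, octamer region, chr14:51427515-51427562 (-): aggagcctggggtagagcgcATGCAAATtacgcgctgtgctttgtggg
Rmrp, octamer region, chr4:43506126-43506173 (-): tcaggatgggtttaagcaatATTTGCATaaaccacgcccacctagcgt
Counted from the start of the gene, the TATA began at −30 in Rn7sk, −32 in Rpph1 and −39 in Rny3, and the octamer at −100 in Rpph1 and −223 in Rmrp. A match is a description of the letters and not of a bound factor.

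Per length, Rmrp had the highest level of all members in RiboMinus, with 24310 RPKM. There Rpph1 (6472 RPKM) and Rn7sk (6373 RPKM) followed and lay close together, then Rprl3 (578 RPKM), Rny3 (429 RPKM) and Rny1 (349 RPKM). In the CCE Ribo-Zero library Rmrp (69836 RPKM) lay above Rny3 (63792 RPKM), and in that of FH Rny3 (51024 RPKM) lay above Rmrp (37754 RPKM). Both were ahead of Rpph1 (28911 and 17385 RPKM), Rn7sk (22407 and 23777 RPKM) and Rny1 (18857 and 16770 RPKM). Levels of genes with few unique positions may be understated, so Rn7sk and Rpph1 cannot be ranked against Rmrp by these values alone. Of the snRNA genes in the CCE Ribo-Zero library a U5 gene on chr4 (1371 RPKM), the U4 gene at chr5:115939468-115939608 (1337 RPKM) and U4atac (1203 RPKM) were highest, followed by the U4 gene at chr5:115940263-115940403 (969 RPKM) and Rnu11 (771 RPKM). In FH the order was another, with the 2 U4 genes first (1639 and 1201 RPKM), then Rnu11 (458 RPKM), U4atac (341 RPKM) and the U5 gene (246 RPKM).

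**Figure D2:**
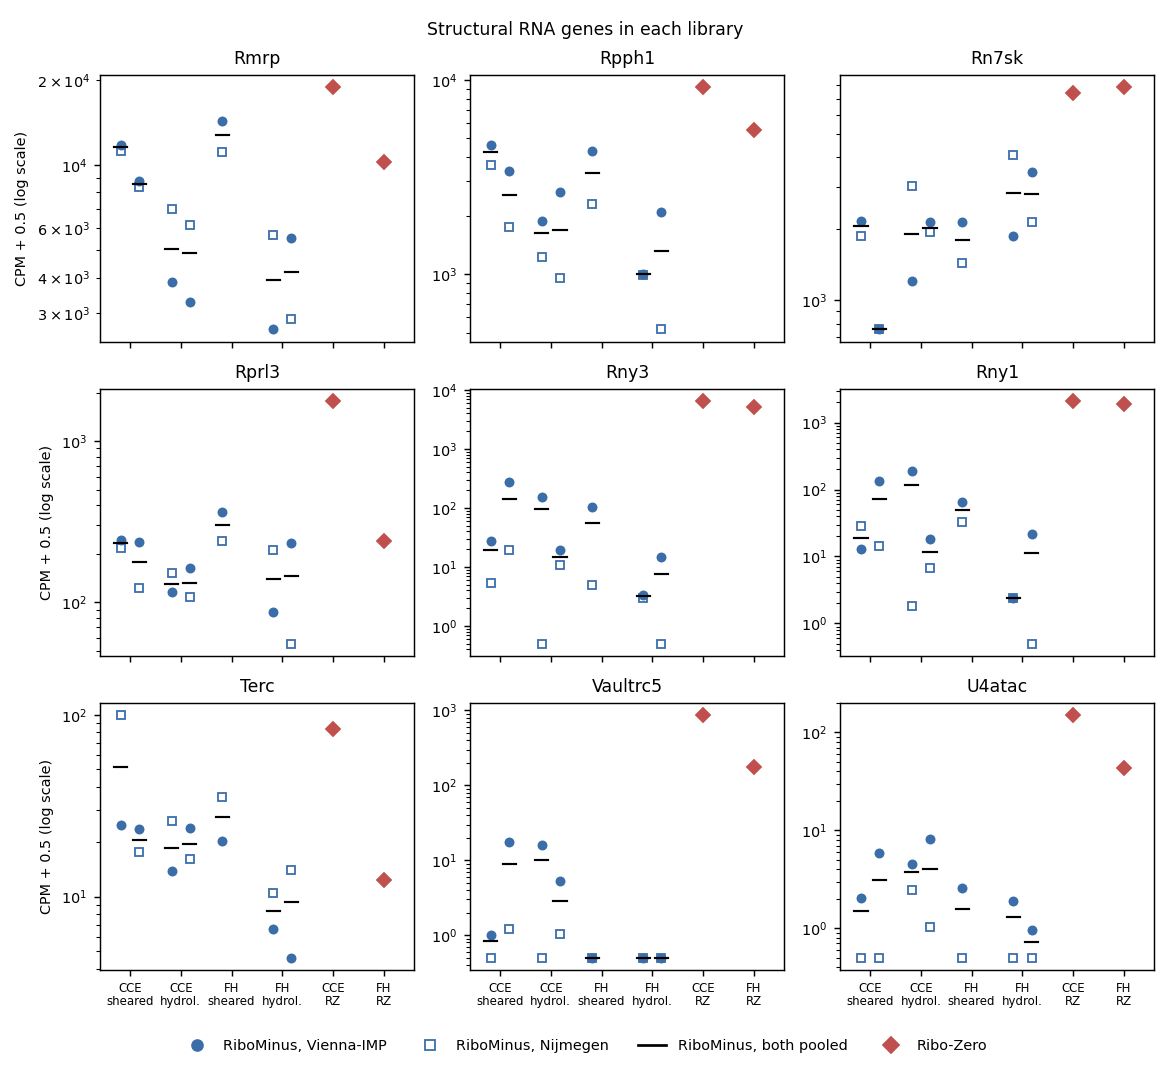
CPM plus 0.5 on a log scale for 9 genes in each library, by tissue and fragmentation, with filled circles for Vienna-IMP, open squares for Nijmegen, bars for both locations pooled and diamonds for the single Ribo-Zero library (RZ) of each tissue. The Y RNA genes, Vaultrc5 and U4atac lie far higher in Ribo-Zero than in any RiboMinus library, and Vaultrc5 had no tag in FH with RiboMinus.

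Rn7sk reached 2052, 1897, 756 and 2014 CPM in the CCE preparations 1 sheared, 1 hydrolysed, 2 sheared and 2 hydrolysed, and 1795, 2814 and 2799 CPM in FH 1 sheared, FH 1 hydrolysed and FH 2 hydrolysed. The sheared CCE 2 preparation was the lowest in both locations (756 and 755 CPM), and FH 1 sheared lay among the CCE values. Rmrp reached 11587, 5061, 8589 and 4900 CPM in the CCE preparations in the same order and 12778, 3919 and 4195 CPM in FH. Every sheared preparation lay above every hydrolysed one, whereas the tissues overlapped. Rpph1 was arranged like Rmrp, at 4257, 1630, 2549 and 1680 CPM in CCE and 3317, 999 and 1316 CPM in FH. Rprl3, an RNase P RNA-like gene 77.1% identical to Rpph1, ranged from 130 to 145 CPM in the 4 hydrolysed and from 177 to 302 CPM in the 3 sheared preparations.

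The Y RNAs varied widely between preparations and locations. Rny3 was at 18.8, 93.4, 142 and 13.96 CPM in CCE and at 54.5, 2.69 and 7.17 CPM in FH, and Rny1 at 18.1, 116, 72.5 and 11.3 CPM in CCE and 48.7, 1.88 and 10.6 CPM in FH. Within 1 preparation the locations were far apart, as Rny3 in sheared CCE 2 had 274 CPM in Vienna-IMP and 18.6 CPM in Nijmegen. In hydrolysed CCE 1 it had 151 CPM in Vienna-IMP, against 0 in Nijmegen as numbered and 10.5 CPM with the numbers crossed. Vaultrc5 and U4atac were also mostly in 1 location, as 68 of 70 and 37 of 41 of their tags came from Vienna-IMP. Among silent short genes this did not always hold. A U6 gene on chr2 had 8 tags in Vienna-IMP and 9 in Nijmegen, and a U6atac gene on chr5 had 2 and 5. The locations selected library fragments of different length, and its part in these values was not tested.

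Differences between FH and CCE within RiboMinus were tested over the 7 preparations with limma on log2(CPM + 0.5), with fragmentation as a covariate and Benjamini-Hochberg adjustment over 16101 genes with a mean of at least 1 CPM. The median difference of all these genes was −0.24 (log2), and 0.12 when CPM was taken over tags in protein-coding exons. Of the members 29 were tested. In FH 6 were higher, all of them 7SK copies, beside 27.5% of all genes called higher, and 3 were lower, beside 40.1% of all genes. Over protein-coding exon tags 13 of 38 were higher, beside 35.1% of all genes, and 2 lower, beside 25.7%. On neither scale were members called more often than all genes. A gene that passes the filter only through the tissue where it is high had to differ, so the counts carry no more weight than the single values. This holds for 4 of the 9, Vaultrc5, U4atac and the 7SK copies on chr13 and chr4, whose mean in the other tissue was under 1 CPM, and their calls are given as a description.

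Vaultrc5, whose RNA is part of the vault particle, had 0.335, 9.52, 8.503 and 2.38 CPM in the CCE preparations and no tag in any FH preparation. As counted the groups did not overlap, but sheared CCE 1 held 1 tag, which is under the floor of 3 tags. The separation is given as a description. Within RiboMinus, 70 tags in CCE against a floor of 3 tags over the FH libraries give a ratio of at least 17.7, or of at least 11.7 without hydrolysed CCE 1, which held 38 of the tags. These bounds cover counting error only. The Ribo-Zero libraries, at 868 CPM in CCE and 175 CPM in FH, lay closer together than either bound. With 68 of 70 RiboMinus tags from Vienna-IMP, Vaultrc5 was too low to be tested in Nijmegen alone. U4atac, which pairs with U6atac in the minor spliceosome and lies in an intron of Clasp1 on the opposite strand, had 1.00, 3.26, 2.59 and 3.56 CPM in CCE and 1.06, 0.808 and 0.231 CPM in FH. The sheared CCE 1 preparation fell below sheared FH 1, so the groups overlapped. Its fitted difference, given as a description, was −1.39 (SE 0.42), and it lost the call without hydrolysed CCE 2 (−1.20) and without hydrolysed FH 2 (−1.02).

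Terc had 50.9, 18.04, 19.96 and 19.01 CPM in CCE and 27.0, 7.81 and 8.79 CPM in FH. Within each kind of fragmentation the FH value was below at least 1 CCE value, and sheared FH 1 lay above sheared CCE 2. The difference was −0.76 (SE 0.28, limma adjusted p = 0.027), of which −0.24 is the shift of all genes. It lost the call when CPM was taken over protein-coding exon tags (−0.44, adjusted p = 0.201), in Nijmegen alone (−0.56, adjusted p = 0.312), without hydrolysed CCE 1 (−0.69, adjusted p = 0.078), hydrolysed CCE 2 (−0.66, adjusted p = 0.107), hydrolysed FH 1 (−0.64, adjusted p = 0.118) or hydrolysed FH 2 (−0.72, adjusted p = 0.089), and without the covariate (−0.95, adjusted p = 0.126).

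The 6 7SK copies higher in FH were at low levels. The copy at chr13:45390023-45390365, between genes, had 0 to 0.891 CPM in CCE and 1.06, 2.15 and 3.47 CPM in FH. Its fitted difference, given as a description, was 1.44 (SE 0.35). It had no Ribo-Zero tag in either tissue. The copy at chr9:120700583-120700903 had 12.7, 10.5, 9.98 and 11.6 CPM in CCE and 25.9, 12.7 and 22.0 CPM in FH, and differed by 0.81 (SE 0.23, limma adjusted p = 0.0066), which fell to 0.58 (adjusted p = 0.131) without sheared FH 1 and was 1.01 (adjusted p = 0.12) in Nijmegen alone. Of its Vienna-IMP tags 86.6% began at 1 position, and 284 of its 337 tags came from there. The copy at chr16:81261948-81262260, in an intron of the neuronal adhesion gene Ncam2, differed by 1.56 (adjusted p = 0.0051), and by 1.36 (adjusted p = 0.075) without sheared FH 1 and 1.03 (adjusted p = 0.20) in Nijmegen alone. Copies at chr4:116587832-116588098 (1.26, given as a description), chr5:140320884-140321204 (1.01, limma adjusted p = 0.036) and chr7:110420064-110420384 (0.82, adjusted p = 0.036) lost the call in 6, 9 and 8 alternatives, among them Nijmegen alone. For the copy on chr4 these included leaving out hydrolysed CCE 1 (0.87) or CCE 2 (1.31), and it kept the call at 1.91 without sheared FH 1. The copy on chr5 lost it without hydrolysed CCE 1 (0.61), sheared FH 1 (1.09) or hydrolysed FH 2 (0.77) and with the hydrolysed numbers crossed at Nijmegen (0.90, adjusted p = 0.0597), and that on chr7 without hydrolysed CCE 1 (0.79), hydrolysed CCE 2 (0.77), sheared FH 1 (0.97) or hydrolysed FH 2 (0.50). In the 7SK copies that lie in introns, tags of the host transcript cannot be told apart from tags of the copy.

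The most abundant members did not pass the test between tissues. Rmrp differed by −0.04 (SE 0.27, limma adjusted p = 0.90) and changed sign in 6 of 17 alternatives. Rpph1 differed by −0.31 (adjusted p = 0.195), Rprl3 by 0.30 (adjusted p = 0.067), Rn7sk by 0.52 (adjusted p = 0.088), Rny3 by −1.71 (SE 0.74, adjusted p = 0.055) and Rny1 by −1.54 (SE 0.80, adjusted p = 0.10). Several of these changed sides of the threshold with the setting. Without sheared CCE 1 the difference passed for Rn7sk (0.76, adjusted p = 5.4e-05), Rny3 (−2.39, adjusted p = 0.00038) and Rny1 (−2.09, adjusted p = 0.0097), and 17 members passed in all. Without sheared FH 1 it passed for Rny3 (−2.90, adjusted p = 0.040), and without sheared CCE 2 for Rpph1 (−0.47, adjusted p = 0.0091). Taken over protein-coding exon tags Rn7sk was higher in FH by 0.87 (adjusted p = 0.012), and it also passed with voom weights (0.52, adjusted p = 0.0385). Rny3 also passed with a pseudocount of 2 CPM (−1.52, adjusted p = 0.0491) and without a filter (adjusted p = 0.0408). Nijmegen alone called none of 25 members tested, with 2 at an unadjusted p under 0.05, and the counts without hydrolysed CCE 2 and without hydrolysed FH 2 were 5 and 3.

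Proteins that bind, transcribe or assemble these RNAs were examined by the RNA of their genes, and protein was not measured. Of 97 such genes tested, 62 were lower in FH, beside 40.1% of all genes, and 4 higher, beside 27.5%. Their median difference was −0.77 beside −0.24 for all genes. Over protein-coding exon tags 44 were lower and 6 higher, beside 25.7 and 35.1% of all genes. The excess of lower ones over the background was not tested. Among the snRNP proteins, 22 of 33 were lower and 1 higher, at a median of −1.09. Among the RNase P and MRP proteins 8 of 10 were lower (−1.08), among the assembly factors around SMN 7 of 9 (−1.12), and all 3 vault proteins (−2.44). Of the minor spliceosome proteins 4 of 8 were lower, of the 7SK proteins 3 of 6, of the signal recognition particle proteins 3 of 5, and of the transcription and 3′ processing factors 10 of 19 with 2 higher, which is nearer to the share of all genes.

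RNA of Mvp, the main shell protein of the vault, differed by −3.43 (SE 0.19, limma adjusted p = 2e-09) and that of Parp4, another vault protein, by −2.44 (adjusted p = 2.1e-06). The RNase P and MRP subunits Pop1 and Pop4 both differed by −2.18 (adjusted p = 4.4e-07 and 1.0e-06). Higher in FH were Snrpn (0.99, SE 0.17, adjusted p = 0.00012), the Sm protein gene of neurons, Snapc1 (0.73, adjusted p = 0.032), Lsm11 (0.58, adjusted p = 0.0021), the U7-specific Sm-like protein, and Snapc3 (0.48, adjusted p = 0.033). Lsm11 lost the call in Nijmegen alone (0.55, adjusted p = 0.053). Snapc1 and Snapc3 lost it in 7 and 8 of 17 alternatives. With the hydrolysed numbers crossed at Nijmegen Snapc1 was at 0.70 (adjusted p = 0.0593) and Snapc3 at 0.45 (adjusted p = 0.0619), and without the covariate they were at 0.76 (adjusted p = 0.0798) and 0.50 (adjusted p = 0.101). Snapc1 also lost it in Vienna-IMP alone (0.19, adjusted p = 0.632) and without hydrolysed CCE 1 (0.68), sheared FH 1 (0.50), hydrolysed FH 1 (0.75) or hydrolysed FH 2 (0.82), and kept it at 1.33 in Nijmegen alone and at 0.47 without sheared CCE 2. Snapc3 also lost it in Nijmegen alone (0.42, adjusted p = 0.229) and without sheared CCE 2 (0.39), hydrolysed CCE 2 (0.34), sheared FH 1 (0.62), hydrolysed FH 1 (0.40) or hydrolysed FH 2 (0.50).

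RNA-hydrolysis was set against cDNA-shearing in the same fit. Of the 29 members 2 were higher after hydrolysis, beside 23.3% of all genes, and 7 lower, beside 15.4%. The median difference of all genes was 0.117. Rmrp and the RNase P RNA Rpph1 with its relatives Rprl3 and Rprl2 were lower after hydrolysis. Rmrp had 4519 ± 549 CPM (SD, n = 4) in hydrolysed and 10985 ± 2159 CPM (n = 3) in sheared preparations, a difference of −1.26 (SE 0.22, limma adjusted p = 0.00083). Rpph1 had 1406 ± 316 and 3374 ± 856 CPM (−1.21, SE 0.21, adjusted p = 0.00065), and Rprl3 136 ± 7.31 and 237 ± 62.3 CPM (−0.82, SE 0.14, adjusted p = 0.00061). As numbered, in none of these 3 did the 2 kinds of fragmentation overlap. With the numbers crossed Rprl3 did, at 70.4 to 223 CPM after hydrolysis, and Rmrp (2735 to 5562 CPM) and Rpph1 (761 to 1915 CPM) did not. Rprl2, another RNase P RNA-like gene, followed at 2.33 ± 0.781 and 7.15 ± 0.706 CPM (−1.40, adjusted p = 0.0019). In Nijmegen alone Rmrp (−0.93, adjusted p = 0.233) and Rprl3 (−0.67, adjusted p = 0.195) did not pass, and in Vienna-IMP alone Rprl2 did not (−0.98, adjusted p = 0.123). With the depleted RNA as a replicate block and the hydrolysed numbers crossed, Rmrp (−1.40, adjusted p = 0.103) and Rpph1 (−1.35, adjusted p = 0.052) did not pass either, and Rprl3 and Rprl2 did. The pairing of RNAs in this crossed block is doubtful. Under it the difference of CCE 1 and 2 correlated at r = −0.39 between sheared and hydrolysed preparations, against −0.09 as numbered.

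Terc was lower after hydrolysis (−1.12, limma adjusted p = 0.0069), as were 7SL copies at chr4:54481205-54481483 (−1.12, adjusted p = 0.020) and chr18:65587123-65587464 (−1.72, adjusted p = 0.025). All 3 calls were lost without sheared FH 1, at −0.77 (adjusted p = 0.179), −0.69 (adjusted p = 0.289) and −1.41 (adjusted p = 0.253), and in either location alone. The 7SL copy on chr4 also lost it without hydrolysed FH 1 (−0.92, adjusted p = 0.062), and that on chr18 without hydrolysed CCE 1 (−1.31, adjusted p = 0.095), sheared CCE 2 (−1.36, adjusted p = 0.097) or hydrolysed FH 2 (−1.36, adjusted p = 0.075). Under the block with crossed numbers Terc (−0.97, adjusted p = 0.094) and the 7SL copy on chr4 (−1.29, adjusted p = 0.072) lost the call. Both 7SK copies higher after hydrolysis had means under 1 CPM in sheared preparations and so passed the filter through the hydrolysed ones. Their values are given as a description. The copy at chr13:45390023-45390365 was higher by 1.26. It lost the call without hydrolysed CCE 2 (1.19), with the replicate block (1.19) and with the block and crossed numbers (1.34). The copy at chr17:12963497-12963748, in an intron of Airn, was higher by 1.22. It lost the call in either location alone, with the replicate block (1.23) and with the block and crossed numbers (1.05). The call was also lost without sheared FH 1 (0.91), sheared CCE 1 (0.99), hydrolysed FH 1 (1.11) or hydrolysed FH 2 (1.23). Rn7sk, 2381 ± 494 CPM in hydrolysed and 1534 ± 686 CPM in sheared preparations, differed by 0.65 (adjusted p = 0.062). It passed without sheared CCE 1 (1.01, adjusted p = 2.1e-05) and, little moved in size, with a pseudocount of 2 CPM (adjusted p = 0.0487), over protein-coding exon tags (0.72, adjusted p = 0.0496) and with voom weights (adjusted p = 0.0254). Rny3 (−1.70, adjusted p = 0.086) and Rny1 (−1.30, adjusted p = 0.217) did not pass over all preparations. Both did without sheared CCE 1 (−2.71, adjusted p = 0.00050, and −2.12, adjusted p = 0.020) and without hydrolysed CCE 1 (−2.67, adjusted p = 0.0054, and −2.45, adjusted p = 0.0069), and Rny1 also in Nijmegen alone (−3.48, adjusted p = 0.0024), while it was at 0.01 (adjusted p = 1.0) without sheared FH 1. The count of members called was 5 without sheared FH 1 and 12 without sheared CCE 1. Whether the tissue difference of a member depended on fragmentation was tested as an interaction: limma called 0.0% of all genes and no member, with 2 members and 1145 genes at an unadjusted p under 0.05. Only 1 sheared preparation is of FH, and it is assumed to vary like the others, so this does not show that the tissue differences were alike.

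**Figure D3:**
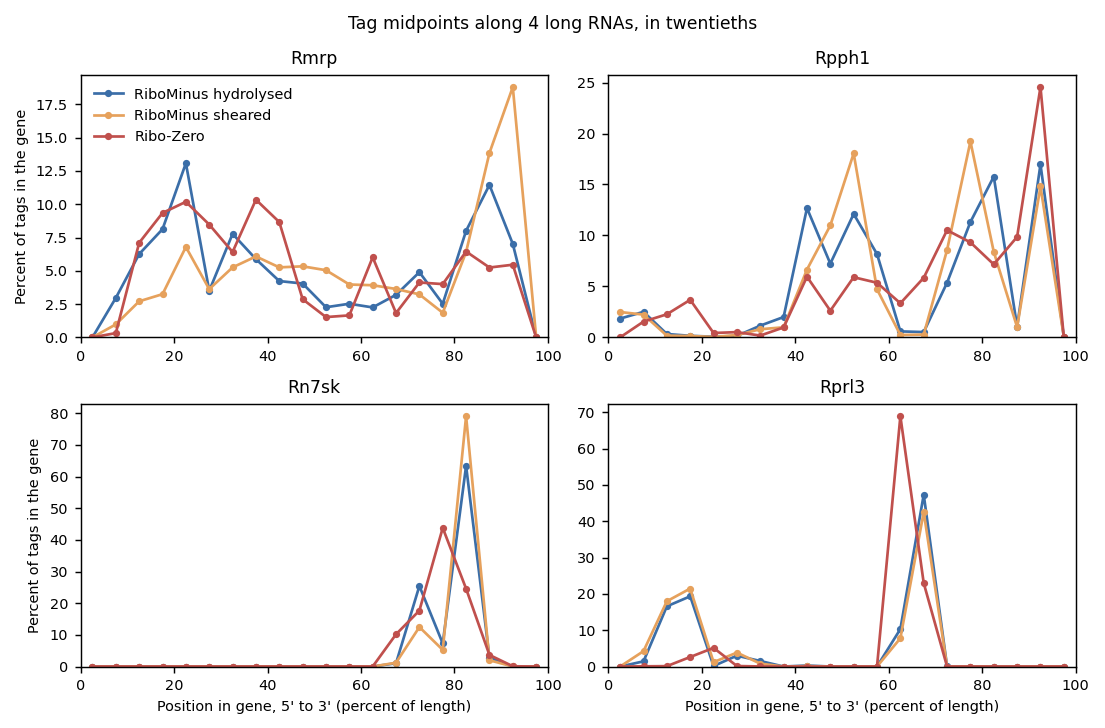
Share of the tags of a gene by position of the tag midpoint, in twentieths of the gene from 5′ to 3′, for pooled hydrolysed RiboMinus, sheared RiboMinus and Ribo-Zero libraries. Sheared preparations place more Rmrp tags near the 3′ end, and nearly all Rn7sk tags lie in its last 40%, where its unique windows are.

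Fragmentation also went with where the tags lay. In Rmrp the first 20% of the gene held 18.5, 19.3, 15.4 and 15.9% of its tags in the hydrolysed preparations CCE 1, CCE 2, FH 1 and FH 2 and 7.94, 8.39 and 4.07% in the sheared CCE 1, CCE 2 and FH 1. The groups did not overlap, at means of 17.3 ± 1.92% (SD, n = 4) and 6.80 ± 2.38% (n = 3). The last 20% held 26.8 ± 3.71% and 39.2 ± 0.973%. With 4 against 3 preparations a two-sided exact permutation test cannot go below 0.057, which both differences reached (adjusted over the 4 genes tested, 0.229 and 0.0762).

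In Rn7sk the last 20% held 66.4 ± 3.65% of tags after hydrolysis and 78.8 ± 6.34% after shearing, and in Rpph1 33.6 ± 4.37 and 24.5 ± 2.93%, so the direction was opposite. Both reached the smallest exact permutation p of 0.057, but Rpph1 did not with the numbers crossed (exact permutation p = 0.114). The first and last 20% of Rmrp together held 44.1 ± 4.24% and 46.0 ± 1.53% (exact permutation p = 0.514), and the first 20% of Rprl3 38.3 ± 11.2 and 43.0 ± 9.22% (exact permutation p = 0.571). In Ribo-Zero, with longer tags, Rmrp had 16.0% (CCE) and 17.6% (FH) in the first 20% and 16.4 and 17.99% in the last. Rpph1 differed between its 2 Ribo-Zero libraries, with 0.296% of tags in the first 20% in CCE and 14.3% in FH, and 53.6 and 30.2% in the last 20%. Tags of Rpph1 in the first 20% were between 3.66 and 5.80% in all RiboMinus preparations.

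The kits were compared among hydrolysed libraries, with tissue as a covariate, over 4 RiboMinus preparations and 2 Ribo-Zero libraries. Kit, RNA sample, tag length (36 and 51 nt), machine, location and library fragment size differ together and cannot be told apart. The median difference of all genes was −0.168. Of 48 members tested 26 were higher in Ribo-Zero, beside 20.2% of all 16465 genes, and 7 lower, beside 28.2%. Of the 26, 16 had under 1 CPM on average in RiboMinus and entered the test through Ribo-Zero, where they are high, and 5 of the 7 lower ones had under 1 CPM in Ribo-Zero. Values of these 21 are given as a description.

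Of the 48 tested, 20 were under 200 bases and 28 of 250 bases or more. Of the 26 higher ones 19 were under 200 bases, and all 7 lower ones were 267 to 343 bases long, but most of the short ones are among those that entered through Ribo-Zero. Of the 26 tested with at least 1 CPM in RiboMinus, all 4 under 200 bases were higher, and of the 22 longer ones 6 were higher and 7 lower. Ratios of RPKM in Ribo-Zero to RiboMinus were taken over all RiboMinus libraries, the sheared ones included, with a floor of 3 RiboMinus tags. Over the genes active in Ribo-Zero, the median was 28.9 in the 31 genes under 200 bases (5.80 to 1652) and 2.65 in the 10 genes of 250 bases or more (0.255 to 4.76). Of the 31, 13 had no RiboMinus tag. Others with fewer than 3 tags were set to the floor too, among them the gene with the highest ratio. Ratios on the floor are lower bounds. Summed tags gave ratios of 98.7 and 2.63. These genes were chosen as high in Ribo-Zero, so the ratios describe the 2 lengths and their sizes are not a result. All 15 long genes active in either kit had a median of 1.89 (0.0898 to 4.76).

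**Figure D4:**
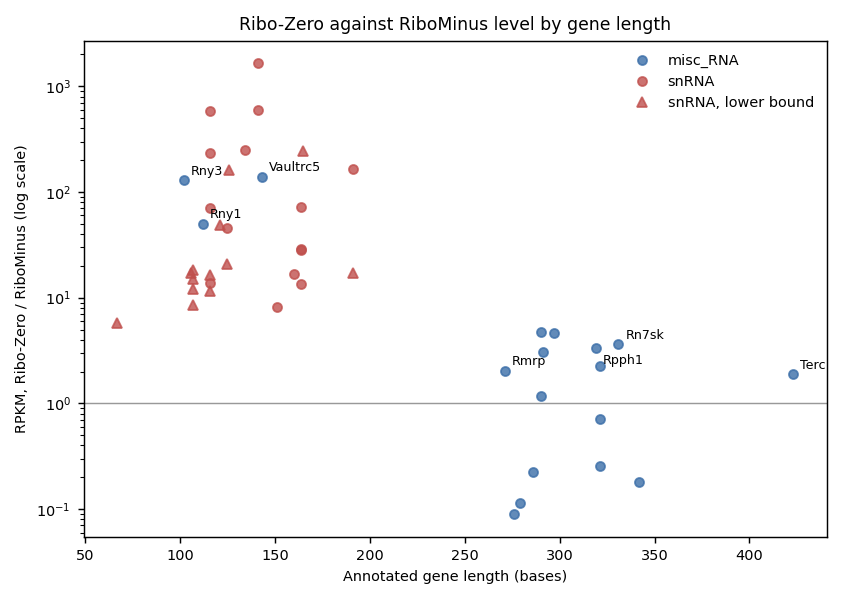
Ratio of RPKM in Ribo-Zero to RiboMinus (log scale) against annotated length for the 46 genes active in either kit. Triangles mark genes without a RiboMinus tag, whose ratios are lower bounds, and circles the others. Some circles, the highest among them, are genes with few RiboMinus tags that were set to the floor, and are lower bounds too. All 31 genes under 200 bases lie above 5.80 and all 15 longer ones at or below 4.76.

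These ratios are over all RiboMinus libraries, the sheared ones included, while the fit was over hydrolysed ones. The part of unique positions in the ratios was not tested. U4atac, with all of its 36-nt windows unique, had a ratio of 45.8, Vaultrc5 with 79.6% unique windows 140, Rny3 with 62.7% 130 and Rny1 with 45.5% 50.3, against 2.03 in Rmrp, all of whose windows are unique. In the fit Rny3 differed by 8.75 (SE 0.76, limma adjusted p = 4.4e-05), Vaultrc5 by 7.90 (SE 0.47), Rny1 by 7.17 (SE 0.95) and U4atac by 5.37 (SE 0.30), each also with either location alone. Of the major snRNAs the U4 gene at chr5:115939468-115939608, which had no unique 36-nt window, had 2 RiboMinus tags against 15651 in Ribo-Zero, and the U5 gene on chr4 3 against 5509. In the 30 genes active in Ribo-Zero alone 16.6% of the 36-nt windows were unique, against 54.3% in the 11 active in both kits. The RiboMinus counts of these 30 may be understated. The U1 gene at chr3:89771921-89772085 and the U6atac gene at chr2:27395325-27395450 had no RiboMinus tag, which makes them at least 244-fold and 162-fold higher by RPKM. Rnu11, the minor spliceosome counterpart of U1, had 7 tags in RiboMinus and Rnu12, that of U2, 9 tags, with fitted differences of 6.76 and 2.08.

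Among the long RNAs Rpph1 was higher in Ribo-Zero by 2.38 (SE 0.17, limma adjusted p = 2.1e-05), Rprl3 by 2.26 (SE 0.52), Rn7sk by 1.71 (SE 0.17) and Rmrp by 1.63 (SE 0.19, adjusted p = 0.00019). The value of Rprl3 was 0.76 without the CCE Ribo-Zero library and 3.76 without that of FH. Fits without 1 of the 2 Ribo-Zero libraries are given here by size only, and the lists of lost calls below leave them out. Rmrp did not pass with Nijmegen alone (1.44, limma adjusted p = 0.051) or without a filter (adjusted p = 0.083), and Rprl3 did not without a filter (adjusted p = 0.064). Terc was higher by 1.31 (limma adjusted p = 0.010), by 0.48 without the CCE and by 2.14 without the FH Ribo-Zero library. It lost the call with Nijmegen alone and without a filter. Lower in Ribo-Zero were the 7SK copies at chr16:81261948-81262260 (−2.11), chr13:45390023-45390365 (−2.05), chr9:120700583-120700903 (−1.77) and chr4:116587832-116588098 (−1.75), and 7SL copies on chr4 (−1.92), chr8 (−1.92) and chr1 (−1.72). The copy on chr9 was −0.38 (limma adjusted p = 0.631) with Nijmegen alone. The 7SK copies on chr4 and chr16 and the 7SL copy on chr8 are among those given as a description. The 7SK copy on chr4 was −1.03 without the FH Ribo-Zero library. It lost the call without hydrolysed CCE 2 (−1.66), with a pseudocount of 2 CPM, without a filter and with Vienna-IMP alone. That on chr16 was −2.02 without the FH Ribo-Zero library and lost the call without a filter. The 7SL copy on chr8 lost it with Nijmegen alone (−1.26).

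The 2 Ribo-Zero libraries, 1 of each tissue, allow values but no test of their own. Of the 41 genes active in Ribo-Zero 28 had more CPM in CCE and 13 fewer. Counting intervals of the ratio of CCE to FH, which leave out every other error, lay above 1 for 25 genes and below 1 for 8, and for 19 and 17 genes when the ratio was taken over tags in protein-coding exons, which multiplies it by 0.672. On both scales 9 genes were over 3 times higher in CCE and none over 3 times lower.

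**Figure D5:**
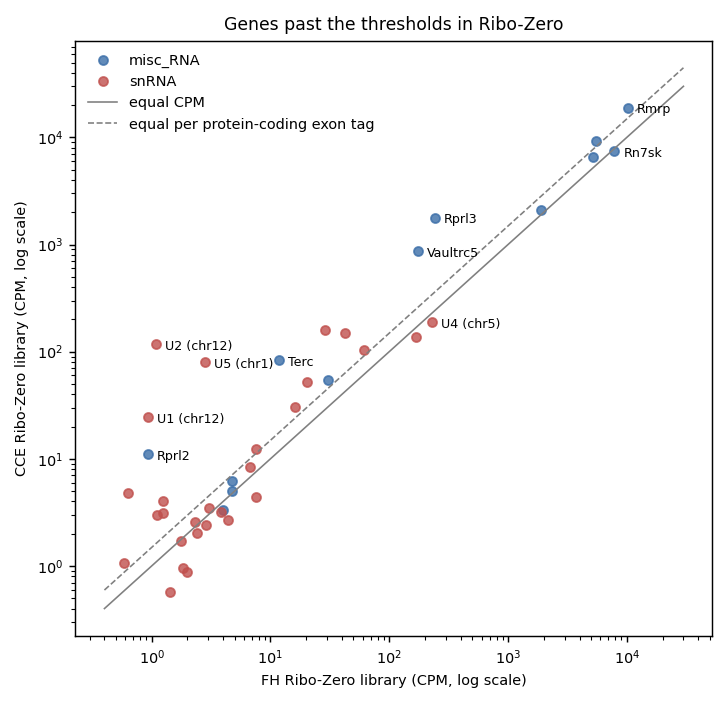
CPM in the CCE against the FH Ribo-Zero library for the 41 genes active in Ribo-Zero, both axes on a log scale, with lines of equal CPM and of equal level per protein-coding exon tag. Genes of U2, U5 and U1 on chr12 and chr1 and Rprl2, Rprl3 and Terc lie above both lines, while Rn7sk and the U4 genes lie below them.

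Copies of 1 snRNA family differed in this ratio. The U2 gene at chr12:60141322-60141512 had 3098 tags in CCE and 50 in FH, 118 and 1.08 CPM, a ratio of 109 (95% counting interval 82.3 to 147) or 73.0 over protein-coding exon tags, while the U2 gene at chr1:72272814-72273004, 94.8% identical to it, had 106 and 57 tags (ratio 3.26). A U5 gene on chr1 had 2090 and 130 tags (ratio 28.2, 23.6 to 33.9), and the U5 gene on chr4 named above 4191 and 1318 (5.58). Another U5 gene on chr4 had 325 and 349 (1.63). The U1 gene at chr12:55797769-55797932 had 645 and 43 tags (ratio 26.3, 19.3 to 36.7), and the U1 gene at chr3:89771921-89772085 1376 and 938 (2.57). The 2 U4 genes on chr5 were lower in CCE, at ratios of 0.815 and 0.807. Reads of such near-identical genes can be placed on the wrong copy or discarded, so the values of single copies are uncertain, and the strain of each source cannot be told apart from the tissue. With RiboMinus these genes had 0 to 6 tags each.

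Among the longer and the minor-class RNAs, Rprl3 had 1776 CPM in CCE and 241 in FH (ratio 7.39, 7.23 to 7.54), Rprl2 11.0 and 0.930 CPM (11.8), Terc 83.4 and 11.8 CPM (7.08, 6.45 to 7.79), Vaultrc5 868 and 175 CPM (4.96, 4.83 to 5.08) and U4atac 150 and 42.7 CPM (3.53, 3.34 to 3.72). Of the Ribo-Zero tags of Rprl3 68.9 and 23.0% lay in 2 adjacent twentieths of the gene, which held 10.3 and 47.3% of its hydrolysed RiboMinus tags, and 91 of its 240 windows of 51 nt were unique. Its Ribo-Zero level and ratio rest on that stretch and, with its identity to Rpph1, are uncertain. Rnu11 (1.68) and U6atac (1.89) were nearer to 1. Rmrp (1.85), Rpph1 (1.66), Rny3 (1.25) and Rny1 (1.12) were higher in CCE by CPM, but Rny3 and Rny1 were lower over protein-coding exon tags (0.840 and 0.755). Rn7sk was lower in CCE on both scales (0.942 and 0.633). For Vaultrc5 and U4atac the direction was that of the RiboMinus preparations, which were made from other RNA. The ratio of Vaultrc5 was below both of its RiboMinus bounds.

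The tissue differences of the 2 kits were set against each other in a fit over the 4 hydrolysed RiboMinus preparations and the 2 Ribo-Zero libraries. Each tissue has 1 Ribo-Zero library, which is assumed to vary like the RiboMinus pairs, so the spread and the calls rest on those pairs and their numbering. As numbered, the FH minus CCE difference passed as lower in Ribo-Zero for 7 members, beside 6.46% of all genes, and as higher for none, beside 2.37% (11 members at an unadjusted limma p under 0.05). With the hydrolysed numbers crossed at Nijmegen none of the 7 passed, nor did any gene, while the sizes stayed close, so the crossing changed the spread and hardly the differences, which are given as a description. As numbered and crossed they were −3.01 and −2.80 for Rprl3 (adjusted p = 0.00042 and 0.310), −1.66 and −1.60 for Terc, −0.59 and −0.52 for Rmrp, −2.42 and −2.40 for Rprl2, −4.82 and −4.99 for the U2 gene on chr12, −4.30 and −4.32 for the U5 gene on chr1 and −3.79 and −3.76 for the U1 gene at chr12:55797769-55797932. The U2, U5 and U1 genes had 6, 1 and 1 RiboMinus tags and entered through the CCE Ribo-Zero library, so their values restate the ratio of the 2 Ribo-Zero libraries and depend on the pseudocount. Rprl3 had 130 and 131 CPM in hydrolysed CCE and 139 and 145 CPM in hydrolysed FH by RiboMinus.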

How the data were processed

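RNA was sequenced from CCE cells and fetal head after rRNA depletion. According to the study's methods, reads were mapped with Bowtie (version not given in the sources used here), to rRNA first and then to mm9, allowing 2 mismatches in 36-nt and 3 in 51-nt tags, and only tags with 1 match were kept. The deposited files list the start and end of each unique tag, without a count column, and a score column that the authors left constant within a file. The libraries do not record the strand of the RNA. Only 16 libraries have tags here. Samples listed without a file of their own were not analysed here.

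Tag midpoints were counted in GENCODE M1 genes and given as CPM over unique tags that are not mitochondrial, and as RPKM. Tags of both locations were summed per preparation. The count column being absent, limma 3.58.1 (R 4.3.3) with a trended variance was used on log2(CPM + 0.5), for genes with a mean of at least 1 CPM, at an adjusted p of 0.05. Single shares were compared by exact two-sided permutation tests with scipy 1.17.1. Families came from gene names, and for 118 of 122 clone-named genes from blastn 2.17.0 at an expect limit of 1e-05. Of the names of single genes, 15 were taken from RefSeq genes with the same neighbours. Sequences are from the mm9 genome, and promoters and their shares from RefSeq. On simulated data with 200 changed genes, 173, 179 and 180 of the 4-fold and 66, 60 and 38 of the 2-fold changes were recovered in the tissue, fragmentation and depletion contrasts. The members, gene lists and tests were chosen with earlier results of these data known. Genes named are the single-copy loci, those leading a family, those next to the thresholds, the 5 largest changes in each direction of a contrast and the 4 largest among protein partners; motifs inside genes were chosen later. The alternatives were other pseudocounts, no filter, CPM over protein-coding exon tags, voom weights, single locations, any overlap, leaving out each preparation, a replicate block and, chosen after seeing the data, crossed numbers. The sequences of the U5 genes are not reported here.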

Additional observations from a re-analysis of the deposited data

Results flagged for a closer look

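Within groups of 4 preparations, 4 of 20 tested sets of values had 1 preparation set apart from the others by Dixon's criterion. Chance meets it in about 1 of 20 for independent values of a single kind. These sets share preparations and mix fragmentation methods or tissues, so that rate does not apply to them. Rn7sk was at 755.6 CPM in sheared CCE 2, below the other 3 CCE preparations (1897 to 2052 CPM). Terc was at 50.9 CPM in sheared CCE 1, above the others (18.04 to 19.96 CPM), with 99.2 CPM in Nijmegen and 24.4 CPM in Vienna-IMP. Among the hydrolysed preparations Rny1 was at 116.2 CPM and Rny3 at 93.4 CPM in CCE 1, against at most 11.3 and 13.96 CPM in the others, and nearly all of these tags came from Vienna-IMP. With the numbers crossed at Nijmegen they were at 108 and 89.6 CPM and still set apart.

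The tissue difference (FH minus CCE, log2) was lower in Ribo-Zero than in RiboMinus, in a fit in which each tissue has 1 Ribo-Zero library assumed to vary like the RiboMinus pairs, for Rprl3 (−3.01), the U2 gene at chr12:60141322-60141512 (−4.82), the U5 gene on chr1 (−4.30), Terc (−1.66), the U1 gene at chr12:55797769-55797932 (−3.79), Rmrp (−0.59) and Rprl2 (−2.42). The U2, U5 and U1 genes had 6, 1 and 1 RiboMinus tags, and their values restate the ratio of the 2 Ribo-Zero libraries. With hydrolysed numbers crossed at Nijmegen none of the 7 was called, at values of −2.80, −4.99, −4.32, −1.60, −3.76, −0.52 and −2.40 in the same order. The sizes stayed close while the calls were lost, so the values are given as a description.

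Genes of the same types on the sex chromosomes were outside the comparisons. The 121 of them held 170 RiboMinus and 1104 Ribo-Zero tags, and 86 held none. A 7SK copy at chrX:149357996-149358303 on the minus strand held 116 and 836 of these tags.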

How the results depend on the processing

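Of 1118 values of single genes and shares recomputed under an alternative, 982 kept their direction and side of the threshold, 106 lost and 22 gained the call, and 8 changed sign. Signs changed for Rmrp between tissues over protein-coding exon tags (0.309), in Vienna-IMP alone (0.255) and without 4 preparations in turn (0.042, 0.019, 0.055 and 0.0057), for Rpph1 between tissues over protein-coding exon tags (0.031), and for Rny1 between fragmentation methods without sheared FH 1 (0.011). None of these 3 was called. The cause was not tested.

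Of 92 counts and shares of the comparisons, 76 stayed within 1.5 times for a count or 1 SD for a share and 16 did not. The SD between genes is wide for the ends of genes, where the median over 4 genes of the difference in the first and last 20% was −3.26 percentage points, −1.28 over the first and last 10% and −5.86 to −0.286 with 1 preparation left out. At 30 RPKM 10 members were active in RiboMinus. Over protein-coding exon tags the share was 1.81% and in Ribo-Zero 7.24%. Between tissues the 9 members called became 23 without a filter on low values, 15 over protein-coding exon tags (13 higher, 2 lower), 5 without the covariate and 0 in Nijmegen alone (2 at an unadjusted p under 0.05), and 3 to 17 when 1 preparation was left out. Between fragmentation methods the 9 became 4 in Vienna-IMP alone, 4 in Nijmegen alone and 5 to 12 with 1 preparation left out. With Ribo-Zero against RiboMinus the 33 became 118 without a filter, which lets in genes that have tags in Ribo-Zero only. The 7 calls of the fit over both kits became 0 with crossed numbers.

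The depleted RNA as a replicate block left 7 of the fragmentation calls, and 3 with crossed numbers. Both fragmentation methods were applied to the same depleted RNA. The difference of CCE 1 and 2 correlated between sheared and hydrolysed preparations with r = −0.09 across 16101 genes (−0.39 crossed). The pairing in the block with crossed numbers is therefore doubtful, and a block with the numbers crossed at Vienna-IMP was not run. The library as the unit counts 2 sequencing runs of each preparation as replicates, so its p-values are too small: by it the ends of Rmrp (10.7 and −14.2 percentage points), Rn7sk (−11.5) and Rpph1 (10.5) passed the exact permutation test. Depth limits members near the filter, since a mean of 1 CPM is under 3 tags in each RiboMinus library.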
